A study of Homo sapiens with 20 samples.

Results

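Expression in the WM793 line that carries the E5A mutant of NME1 was compared with expression in its parent line. WM793 is an established human melanoma cell line derived from a vertical growth phase tumour. The comparison is between 8 of the 20 arrays of the series, the 4 labelled NME1-E5A and the 4 labelled Parent. It covers all 18708 rows of the deposited table. The limma tests below took their estimate of the spread from all 20 arrays, unless stated otherwise. Each row holds the log2 expression value that the authors obtained with RMA for a transcript cluster of the Affymetrix Human Exon 1.0 ST array, so a difference of 1 is a doubling. The other 12 arrays come from NME1-wild-type, NME1-K12Q and NME1-P96S, 4 each. These lines carry the unmutated construct or another single mutant, and Parent carries no construct. All 5 lines were grown alike for 3 days to 70 to 80% confluence before total RNA was extracted. Each construct is represented by 1 line, and per the design text its 4 arrays are technical replicates. The p-values below therefore measure the spread between these arrays and not the spread between independently made lines.

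NME1 is a nucleoside diphosphate kinase, an enzyme that moves phosphate between nucleotides, and is known as a suppressor of metastasis in melanoma and other cancers. The protein also has histidine kinase and DNA exonuclease activities. The E5A substitution is known to disable the exonuclease while leaving the kinase active. K12Q is known to disable the nucleoside diphosphate kinase, and P96S to weaken histidine kinase activity. These mutants may affect further activities as well. No activity was measured here, so differences between the lines are not assigned to any single activity.

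The row that holds NME1 also holds the NME1-NME2 readthrough transcript. It read 9.69, 9.77, 9.94 and 9.72 in the 4 NME1-E5A arrays, against 9.37, 9.40, 9.74 and 9.59 in the 4 Parent arrays. The groups overlapped. The line labelled as overexpressing the mutant was 0.26 higher on the log2 scale, and the exact permutation test (two-sided, 4 against 4 arrays) gave p = 0.0857, where 0.0286 is the smallest it can give. Without Parent replicate 3, the highest Parent array, the difference was 0.33 and the exact permutation p 0.0286, the smallest that 4 against 3 arrays can give. It was the only Parent array above the lowest NME1-E5A array. Leaving it out therefore fixed this p, which is no evidence of a difference. Where the probes of the row lie relative to the NME1 sequence in the construct was not tested. The same row lay above Parent by 0.28 in NME1-wild-type, 0.23 in NME1-K12Q and 0.25 in NME1-P96S. The 8 measured rows of the NME family differed by between -0.19 for NME3 and 0.26 for NME1, and limma called 0 of them. At an unadjusted p under 0.05 there was 1 (12.5%), NME1 itself, against 3.03% of all rows.

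Lineage markers were read as a check of the labelled cell type. SOX10, a transcription factor of the melanocyte lineage, read 9.35 ± 0.151 in NME1-E5A and 9.34 ± 0.118 in Parent (SD, n = 4 each). The pigment cell genes MLANA (3.55 in NME1-E5A, 3.67 in Parent) and TYRP1 (3.95 in NME1-E5A, 4.29 in Parent) sat near the low end of the scale. Markers of other cell types were called in 0 cases by limma, among 11 leukocyte, 10 endothelial, 8 fibroblast and 10 keratinocyte and epithelial genes. At an unadjusted p under 0.05 there were 0, 1 (10%), 2 (25%) and 0 in the same order, against 3.03% of all rows. The 3 were lower in NME1-E5A. The defining markers PTPRC (3.31 in NME1-E5A, 3.34 in Parent), PECAM1 (4.35 and 4.42 in the same order) and EPCAM (3.62 and 3.72) were low in both lines. Other members read higher in both lines, among them KRT18 (8.37 in NME1-E5A, 8.35 in Parent), FAP (7.27 and 7.02 in the same order), KRT8 (6.69 and 6.86) and CLDN5 (6.56 and 6.72). The mean of the leukocyte list was 4.57 to 4.70 on the NME1-E5A arrays and 4.32 to 5.29 on the Parent arrays. That of the endothelial list was 4.90 to 5.01 in NME1-E5A and 4.72 to 5.59 in Parent. The fibroblast list read 5.68 to 5.90 in NME1-E5A and 5.71 to 6.05 in Parent, and the keratinocyte and epithelial list 5.41 to 5.53 in NME1-E5A and 5.28 to 6.02 in Parent. In each list Parent replicate 2 was the highest of the 8 arrays.

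The arrays of NME1-E5A resembled each other more than those of Parent did. The median SD over all rows was 0.139 in NME1-E5A and 0.315 in Parent, and the Parent SD was the larger in 15630 of 18708 rows. Pairs of NME1-E5A arrays correlated at 0.987 to 0.994 across rows, pairs of Parent arrays at 0.925 to 0.987, and pairs of 1 NME1-E5A and 1 Parent array at 0.952 to 0.991. Parent replicate 2 had the narrowest interquartile range of all 20 arrays, 2.191, against 2.714 to 2.798 in NME1-E5A and 2.603 to 3.074 in the other Parent arrays. The median difference between the lines followed the level of the row, from -0.12 in the 25% of rows with the lowest mean to 0.05 in the 25% with the highest. Without Parent replicate 2 these medians were 0.03 and -0.00.

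A row was counted as changed when limma gave a Benjamini-Hochberg adjusted p under 0.05 over all 18708 rows and the fold was at least 1.5. By this rule 40 rows changed between NME1-E5A and Parent, 0.214% of those tested. Of these, 26 were higher in NME1-E5A (0.139%) and 14 were lower (0.0748%). With each array centred on its median the counts were 25 higher and 7 lower, a share higher of 78.1% in place of 65%. A single gene symbol was available for 34 of the 40 rows. All 40 had 4 NME1-E5A arrays entirely above or entirely below the 4 Parent arrays, against 2% of all rows. The rule picked these rows on the same arrays, so such separation largely follows from it. For called genes, here and below, it is a description and no further evidence. The called differences ran from -1.26 to 1.55 on the log2 scale, and the median over all rows was -0.043. Leaving out NME1-E5A replicate 3 lowered the count to 20. Without NME1-E5A replicate 2 it was 24, and without Parent replicate 3 it was also 24. With the arrays of NME1-E5A and Parent alone the count was 12, 9 higher and 3 lower, and 28 of the 40 calls were lost. The calls kept there were those of AK4, ALDOC, NRN1, ENO2, VLDLR, BEND5, BNIP3, STC1, B4GALT6, EREG, NETO2 and VIPR1.

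**Figure D1:**
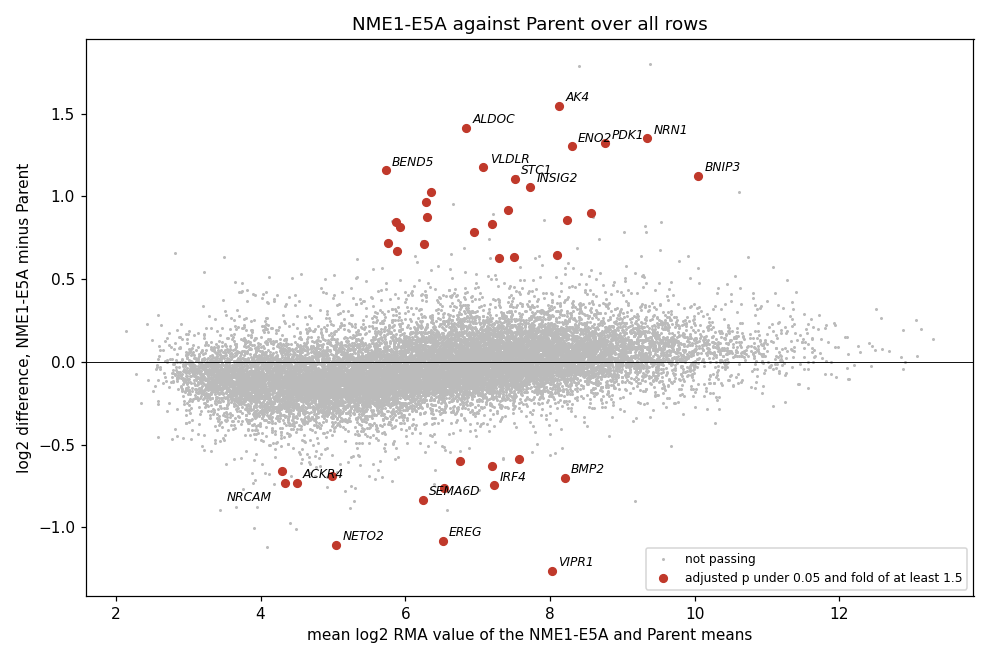
Log2 difference of NME1-E5A minus Parent (vertical axis) against the average of the means of both lines (horizontal axis, log2 RMA value) for all 18708 rows. Red points are the 40 rows that changed, with the names of the single-symbol genes that moved furthest. AK4 lies at 1.55 and VIPR1 at -1.26.

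Several of the genes that rose most in NME1-E5A were enzymes of energy metabolism and genes that low oxygen is known to induce. Cells sense oxygen through the EGLN prolyl hydroxylases, which mark HIF1A and EPAS1 for destruction by the VHL ubiquitin ligase. When oxygen is scarce these factors pair with ARNT and bind DNA at the letters ACGTG or GCGTG. Their targets raise glucose uptake and glycolysis, divert pyruvate from the mitochondria, remove mitochondria and remodel the matrix. The arrays measured bulk RNA, so more RNA per cell and more cells that express a gene cannot be told apart.

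AK4, a mitochondrial adenylate kinase, had the largest called rise. It read 8.95, 8.91, 8.97 and 8.77 in NME1-E5A, against 7.60, 6.54, 7.48 and 7.80 in Parent. Every NME1-E5A array lay above every Parent array, and Parent replicate 2 was far below the other Parent arrays. The difference was 1.55 (SE 0.199), a 2.92-fold rise with an adjusted p of 0.000477 by limma, and 1.28 without that array. The SD was 0.0885 in NME1-E5A and 0.557 in Parent. With the arrays of NME1-E5A and Parent alone the adjusted p was 0.0474 by limma. The other measured adenylate kinases, 4 of them, lay between -0.19 for AK5 and 0.03 for AK3 and did not pass.

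PDK1, the kinase that inhibits pyruvate dehydrogenase and so limits the entry of pyruvate into the mitochondrial cycle, read 9.29, 9.54, 9.62 and 9.24 in NME1-E5A. The Parent arrays read 8.08, 7.30, 8.37 and 8.65. The groups were apart, with Parent replicate 2 again the lowest. The difference was 1.32 (adjusted p 0.006, limma), and 1.05 without Parent replicate 2. With the arrays of NME1-E5A and Parent alone the call was lost (adjusted p 0.158, limma). Among 12 measured genes of pyruvate dehydrogenase and its regulators PDK1 was the 1 that changed, where 0.214% of all rows did. An unadjusted p under 0.05 was reached by 2 (16.7%), both higher in NME1-E5A, against 3.03% of all rows. PDK3, a related kinase, differed by 0.36, the catalytic subunit gene PDHA1 by -0.03, and the list median was -0.04.

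Glycolysis genes were higher in NME1-E5A in 17 of 19 measured cases, and 3 passed the test. Of all rows, 39.2% had a positive difference and 0.139% were called higher. The median difference of the list was 0.34, against -0.043 over all rows. In 12 of the 19 all NME1-E5A arrays lay above all Parent arrays, against 1.07% of all rows. At an unadjusted p under 0.05 there were 17 of the 19 (89.5%), all higher in NME1-E5A, against 3.03% of all rows in either direction. Like the other lists here, this one was chosen with earlier results of these data known, so its counts are a description and no independent evidence of its direction. ALDOC, the brain isoform of aldolase, read 7.70, 7.51, 7.42 and 7.56 in NME1-E5A, against 6.07, 6.44, 6.07 and 5.96 in Parent. ENO2, the neuronal enolase, read 8.98, 8.90, 8.85 and 9.06 in NME1-E5A, against 7.69, 7.92, 7.46 and 7.52 in Parent. For both genes the NME1-E5A arrays stood clear of Parent by more than the range of either group. ALDOC rose by 1.41 (adjusted p 1.47e-05, limma) and ENO2 by 1.30 (adjusted p 1.37e-05, limma).

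PFKFB4, which sets the level of the glycolytic activator fructose 2,6-bisphosphate, read 8.60, 8.58, 8.66 and 8.79 in NME1-E5A. It read 7.61, 7.65, 7.72 and 8.24 in Parent, so the groups did not overlap. The rise of 0.85 (adjusted p 0.0423, limma) was close to the threshold. It was lost when any 1 of 14 arrays was left out, with differences of 0.79 to 0.88 and adjusted p of 0.0539 to 0.214 by limma. These were the 4 NME1-E5A arrays, Parent replicates 1, 2 and 3, NME1-wild-type replicates 1 and 3, NME1-K12Q replicates 1 and 3, and NME1-P96S replicates 1, 2 and 4.

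The common isoforms moved less than ALDOC and ENO2. ENO1 differed by 0.25 and ALDOA by 0.22, and neither passed. The lactate dehydrogenase gene LDHA differed by 0.32, GAPDH by 0.20, and the glucose transporter SLC2A1 by 0.34. The phosphoglycerate kinase PGK1 averaged 11.1 ± 0.19 in NME1-E5A and 10.1 ± 0.666 in Parent (SD, n = 4 each). Its difference of 1.03 had an adjusted p of 0.265 by limma. GPI (0.57), PFKP (0.43) and TPI1 (0.34) had the groups apart without passing, whereas LDHB (-0.01) and PFKM (-0.02) hardly differed. All but 1 of the 19 genes lay in the 25% of rows with the highest level, where the median over all rows was 0.05.

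**Figure D2:**
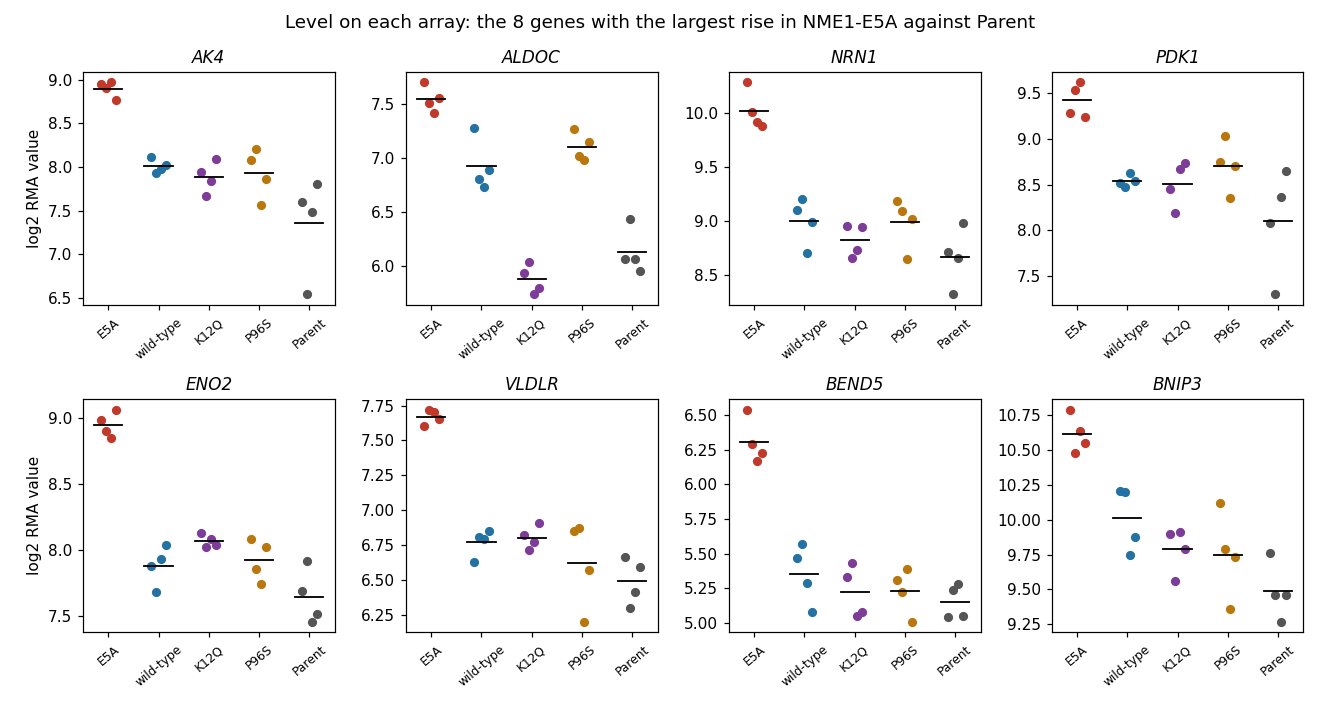
Log2 RMA value on each array (points) and mean (bar) in NME1-E5A, NME1-wild-type, NME1-K12Q, NME1-P96S and Parent for the 8 single-symbol genes with the largest called rise. In each panel the 4 NME1-E5A arrays lie above the 4 Parent arrays. ALDOC is also high in NME1-wild-type (mean 6.93) and NME1-P96S (mean 7.11).

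In the list of the hypoxia response outside glycolysis all 27 measured genes were on the higher side in NME1-E5A. Their median difference was 0.64, and 39.2% of all rows were positive. Genes of oxygen sensing were listed apart, and 3 of those 10 were negative, with EGLN3 lowest at -0.19. The members were chosen with earlier results of these data known, so the 27 of 27 is a description of this list. In 15 of the 27 the groups were apart, against 1.07% of all rows. The test called 4 of the 27 higher, against 0.139% of all rows. At an unadjusted p under 0.05 there were 21 of the 27 (77.8%), all higher in NME1-E5A. The median was 0.53 without Parent replicate 2 and 0.61 with the interquartile range of the array as a covariate. Within the 25% of rows with the highest level, 15 members had a median of 0.78, against 0.05 for all rows there. The mean level of the list was 8.25, 8.13, 8.19 and 8.16 on the NME1-E5A arrays, against 7.57, 7.46, 7.55 and 7.72 on the Parent arrays.

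BNIP3, a receptor on the mitochondrial outer membrane that marks mitochondria for removal, read 10.79, 10.48, 10.64 and 10.55 in NME1-E5A, against 9.76, 9.46, 9.27 and 9.46 in Parent. The groups were well apart. It rose by 1.13 (2.18-fold, adjusted p 0.0011, limma). BNIP3L, its close relative, averaged 9.41 ± 0.109 in NME1-E5A and 8.62 ± 0.373 in Parent (SD, n = 4 each), a difference of 0.78 that missed the threshold (adjusted p 0.0761, limma). Other mitophagy genes did not pass, among them PINK1 at -0.11, OPTN at 0.19 and FUNDC1 at -0.22.

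STC1, a secreted glycoprotein hormone, read 8.04, 8.01, 8.09 and 8.15 in NME1-E5A, against 7.23, 6.80, 6.72 and 7.12 in Parent. It rose by 1.10 (adjusted p 0.000626, limma), with no overlap. INSIG2, an endoplasmic reticulum protein that holds back the sterol regulators, read 8.48, 8.09, 8.34 and 8.11 in NME1-E5A, against 7.02, 6.90, 7.18 and 7.69 in Parent. ERO1A, an oxidase that supports disulfide formation in secreted proteins, read 8.88, 8.97, 9.19 and 9.03 in NME1-E5A, against 8.39, 7.86, 7.91 and 8.31 in Parent. The groups were apart for both genes. INSIG2 rose by 1.06 (adjusted p 0.02) and ERO1A by 0.90 (adjusted p 0.0259), both by limma.

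The call for INSIG2 was lost without NME1-E5A replicate 1 or 3 or Parent replicate 1, 2 or 3, at differences of 0.96 to 1.05 and adjusted p of 0.0764 to 0.0994 by limma. The call for ERO1A was lost without any single NME1-E5A array or without Parent replicate 2 or 3, at 0.81 to 0.95 and 0.0542 to 0.147. The list had 2 called members in place of 4 without NME1-E5A replicate 1 or 3 or Parent replicate 2 or 3, and 7 without NME1-P96S replicate 3. BNIP3 and STC1 were called without each single array of the 20.

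Most of the remaining members were higher without passing. P4HA2, a collagen prolyl hydroxylase, differed by 0.79 and came near the threshold (adjusted p 0.0685, limma). FAM162A, a mitochondrial protein, differed by 1.12 (adjusted p 0.0922, limma), and HILPDA, a lipid droplet protein, by 0.89 (adjusted p 0.14, limma). LOX, which crosslinks collagen, differed by 0.67, and VEGFA, the angiogenic growth factor, by 0.35. ADM (0.08), MXI1 (0.03) and CA12 (0.01) were close to level between the lines.

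The transcripts of the oxygen sensing machinery itself did not change. HIF1A averaged 11.2 ± 0.187 in NME1-E5A and 11.1 ± 0.264 in Parent, and EPAS1 8.24 ± 0.0957 in NME1-E5A and 8.14 ± 0.264 in Parent (SD, n = 4 each). The 10 measured genes of the list lay between -0.19 for EGLN3 and 0.22 for HIF1AN, with a median of 0.05. Limma called 0 of them, and 0 had an unadjusted p under 0.05. The arrays measure RNA, and the protein level of these factors was not measured here.

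**Figure D3:**
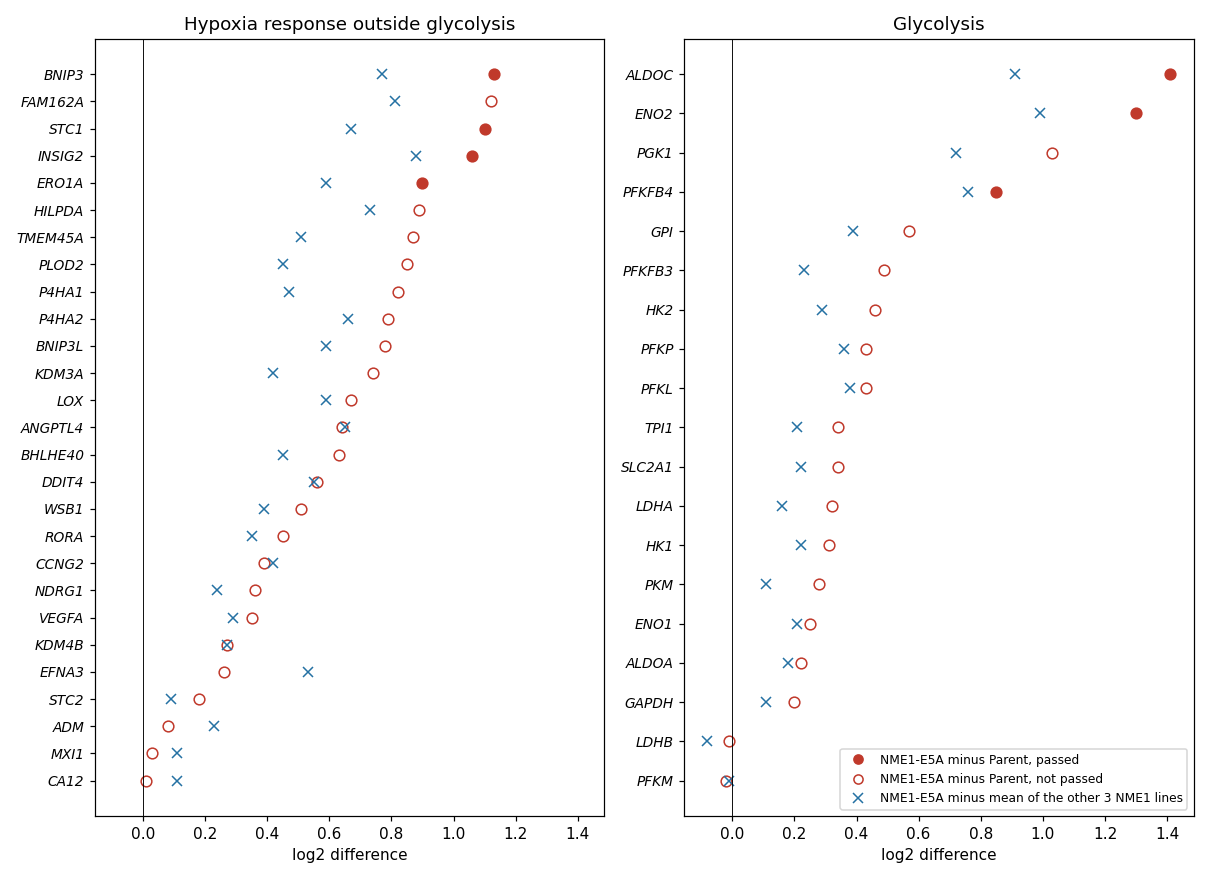
Log2 difference (horizontal axis) for each measured gene of the hypoxia response outside glycolysis (27 genes) and of glycolysis (19 genes). Red circles give NME1-E5A minus Parent, filled where the gene passed the test, and blue crosses give NME1-E5A minus the mean of the other 3 NME1 lines. The 27 red circles of the left panel run from 0.01 for CA12 to 1.13 for BNIP3.

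The bases just before the start of 3 risen genes are shown because they hold the letters ACGTG or GCGTG to which the HIF factors bind. NETO2, a gene that fell, is shown for contrast. Each is the 250 bases upstream of the gene start in RefSeq (GRCh38.p14), written 5′ to 3′ on the strand of the gene, with matches on either strand in capitals.
AK4 (chr1:65147302-65147551, plus strand): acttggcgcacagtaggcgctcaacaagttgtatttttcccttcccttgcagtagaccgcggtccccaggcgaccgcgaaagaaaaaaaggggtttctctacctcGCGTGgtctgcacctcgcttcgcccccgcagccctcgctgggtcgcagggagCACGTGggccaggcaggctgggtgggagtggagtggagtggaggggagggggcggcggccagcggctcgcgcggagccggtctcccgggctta
ENO2 (chr12:6914330-6914579, plus strand): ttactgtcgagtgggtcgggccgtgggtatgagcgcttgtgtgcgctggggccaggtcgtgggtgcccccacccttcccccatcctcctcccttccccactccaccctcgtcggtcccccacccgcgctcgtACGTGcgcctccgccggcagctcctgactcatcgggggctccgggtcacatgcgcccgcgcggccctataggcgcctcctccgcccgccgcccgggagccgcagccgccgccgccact
BNIP3 (chr10:131981924-131982173, minus strand): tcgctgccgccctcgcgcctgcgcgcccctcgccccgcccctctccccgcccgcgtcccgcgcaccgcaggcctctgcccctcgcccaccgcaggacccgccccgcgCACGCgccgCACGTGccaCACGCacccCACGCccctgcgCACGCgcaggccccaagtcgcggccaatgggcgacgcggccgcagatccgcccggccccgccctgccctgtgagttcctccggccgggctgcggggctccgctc
NETO2 (chr16:47143946-47144195, minus strand): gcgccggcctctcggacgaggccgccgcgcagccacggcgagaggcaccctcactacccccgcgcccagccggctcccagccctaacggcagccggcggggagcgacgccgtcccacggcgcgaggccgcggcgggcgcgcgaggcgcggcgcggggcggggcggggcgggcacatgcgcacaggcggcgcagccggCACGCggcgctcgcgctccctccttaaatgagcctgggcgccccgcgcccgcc

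AK4 had 3 matches in 2 separate stretches, 1 of them the palindrome CACGTG, which matches on both strands. ENO2 had 1 match, and BNIP3 had 6 in 5 stretches. NETO2 had 1 match as well, of the form GCGTG. The 250 bases before the RefSeq start of PDK1 held no match, which says only that these letters are not in that window. Of the promoters of the 27 hypoxia response genes 22 were available, and 18 of these (81.8%) held a match, against 51.7% of 11529 promoters of genes with a row of their own. For ACGTG alone the shares were 59.1% in the list and 21.1% in those promoters. Many list members are known as direct HIF targets, so this share was partly fixed by the choice of list. Among all changed genes with a promoter, 11 of 19 higher ones (57.9%) and 5 of 10 lower ones (50%) held either motif, against 51.7%. For ACGTG alone the shares were 36.8% of the higher and 10% of the lower genes, against 21.1%. A match is a description of the letters and was not tested as a binding site.

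The list levels set NME1-E5A apart from the other lines with a construct as well. For the hypoxia response outside glycolysis the array means lay at 8.13 to 8.25 in NME1-E5A, 7.64 to 7.79 in NME1-wild-type, 7.60 to 7.81 in NME1-K12Q, 7.55 to 7.83 in NME1-P96S and 7.46 to 7.72 in Parent. Glycolysis read 10.26 to 10.36 in NME1-E5A, 9.77 to 10.09 in NME1-wild-type, 9.93 to 10.04 in NME1-K12Q, 9.90 to 10.05 in NME1-P96S and 9.73 to 9.90 in Parent. For both lists the 4 NME1-E5A arrays lay above the other 16. The cell cycle list, by contrast, read 8.57 to 8.75 in NME1-E5A and 8.33 to 8.76 in Parent, and limma called 0 of its 27 genes, with 0 at an unadjusted p under 0.05. How dense the cultures were and what oxygen they had were not measured on the arrays, and their part in these differences was not tested.

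**Figure D4:**
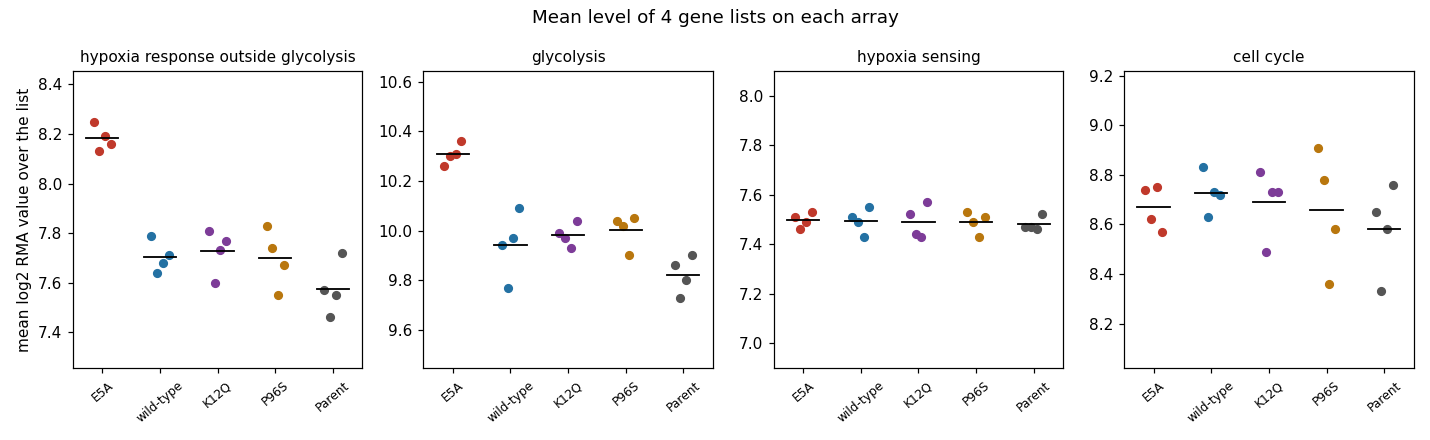
Mean log2 RMA value over the genes of a list on each array (points) and its mean (bar) in NME1-E5A, NME1-wild-type, NME1-K12Q, NME1-P96S and Parent, for 4 lists; each vertical axis spans the same log2 range. The NME1-E5A arrays lie highest for the hypoxia response (8.13 to 8.25) and glycolysis (10.26 to 10.36), and among the other arrays for hypoxia sensing and the cell cycle.

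Genes outside the hypoxia response and glycolysis lists rose too. These lists do not hold every gene that responds to low oxygen, so the genes below may include others. NRN1, neuritin, a membrane-anchored protein that promotes neurite growth, read 10.28, 10.01, 9.91 and 9.88 in NME1-E5A, against 8.71, 8.32, 8.66 and 8.98 in Parent. It rose by 1.35 (adjusted p 9.52e-05, limma) with wide separation, while the neurotrophin gene BDNF differed by 0.07 and the receptor gene NTRK2 by -0.04. VLDLR, a receptor for lipoproteins and reelin, read 7.60, 7.72, 7.70 and 7.65 in NME1-E5A, against 6.66, 6.30, 6.41 and 6.59 in Parent. It rose by 1.17 (adjusted p 9.23e-05, limma) as the 1 changed gene of 11 in the low-density lipoprotein receptor family. In that family 1 gene (9.09%) had an unadjusted p under 0.05. Of all rows 0.214% were called and 3.03% had such a p. BEND5, a DNA-binding protein with a BEN domain, read 6.54, 6.29, 6.17 and 6.23 in NME1-E5A, against 5.04, 5.24, 5.28 and 5.05 in Parent. It rose by 1.16 (adjusted p 0.000111, limma), and for VLDLR and BEND5 alike the groups were clear of each other.

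B4GALT6, which makes lactosylceramide, rose by 1.03 (adjusted p 0.0025, limma), with 6.68 to 7.02 in NME1-E5A and 5.65 to 6.03 in Parent. The ubiquitin ligase gene RNF128 rose by 0.82 (adjusted p 0.00301, limma), with 6.15 to 6.49 in NME1-E5A and 5.40 to 5.71 in Parent. RNF122, a further ubiquitin ligase gene, rose by 0.71, and TMEM255A, a membrane protein gene, by 0.79. These 4 genes were called without each single array. With the arrays of NME1-E5A and Parent alone B4GALT6 was still called (adjusted p 0.0297, limma). RNF128 (adjusted p 0.106), RNF122 (0.112) and TMEM255A (0.063) were not called there by limma.

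Other rises were closer to the threshold. GPR146, a G protein-coupled receptor, rose by 0.96 and SERPINB7, a serine protease inhibitor, by 0.84. GYS1, the muscle glycogen synthase, rose by 0.64. MPI, which links mannose and fructose phosphates, and IPMK, an inositol phosphate kinase, rose by 0.63 each. Their adjusted p lay between 0.0169 and 0.0357 by limma, and the groups were apart in each case. GPR146 was lost without any single NME1-E5A array or Parent replicate 3 or 4 (0.85 to 1.00). SERPINB7 was lost without any single NME1-E5A array, and also without Parent replicate 1, 2 or 3 (0.75 to 0.89). The same held without replicate 3 or 4 of NME1-wild-type or of NME1-K12Q, or replicate 4 of NME1-P96S. GYS1 was lost without NME1-E5A replicate 2, 3 or 4 or any Parent array (0.60 to 0.65). MPI was lost without NME1-E5A replicate 2, 3 or 4 or Parent replicate 1 or 3 (0.55 to 0.67), and IPMK without NME1-E5A replicate 2, 3 or 4 or Parent replicate 2 or 3 (0.58 to 0.64). With quantile normalisation SERPINB7 (0.96, adjusted p 0.205) and GYS1 (0.62, adjusted p 0.0559) were not called by limma.

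A further 4 risen rows had several symbols and are named by row. They were row 3029230 (0.92), row 2577482 (0.87), row 2643217 (0.83) and row 2439917 (0.72). Row 2643217 carries the transferrin gene TF together with SRPRB, and the row does not tell them apart. Row 2577482 was lost without NME1-E5A replicate 1, 2 or 3 or Parent replicate 1, 3 or 4 (0.75 to 0.91). Row 2439917 was lost without any 1 of 16 arrays (0.65 to 0.73), that is, all but Parent replicate 2 and NME1-P96S replicates 1, 2 and 3.

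VIPR1, a receptor for vasoactive intestinal peptide, had the largest fall among the 14 rows that fell. It read 7.41, 7.47, 7.41 and 7.27 in NME1-E5A, against 8.50, 8.31, 8.87 and 8.93 in Parent. The 4 NME1-E5A arrays lay together, far below Parent. It fell by 1.26 on the log2 scale (2.40-fold lower, adjusted p 7.7e-05, limma). VIPR1 was the 1 changed gene of 11 in the family of receptors and ligands around it, where 0.214% of all rows changed. An unadjusted p under 0.05 was reached by 1 of the 11 (9.09%), against 3.03% of all rows. VIPR2 differed by -0.20, which was also the median of the list, and the ligand gene VIP by -0.14. For NME1-E5A against the other NME1 lines the list median was 0.02.

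NETO2, an auxiliary subunit of kainate-type glutamate receptors, read 4.46, 4.57, 4.35 and 4.60 in NME1-E5A, against 5.54, 5.68, 5.59 and 5.59 in Parent. Both groups were tight and well apart. The difference was -1.11 (adjusted p 7e-05, limma). Of the 5 measured kainate receptor subunits GRIK2 differed by 0.22 and the other 4 by -0.07 to -0.21, and none passed. Of the 7 measured genes of the kainate receptor complex 1 (14.3%) had an unadjusted p under 0.05, against 3.03% of all rows. NETO2 also stands in a list of 10 motility genes reported as lowered by NME1 in another cancer cell line. It was the 1 of the 10 that changed, where 0.214% of all rows did. An unadjusted p under 0.05 was reached by 2 of the 10 (20%), 1 higher and 1 lower. MET of that list differed by 0.39 and L1CAM by 0.27, neither passing.

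Of 13 measured EGF ligands and ERBB receptors 1 rose, 1 fell and 11 did not pass. In 2 the difference was positive and in 11 negative, whereas of all rows 39.2% were positive and 0.214% were called. At an unadjusted p under 0.05 there were 1 higher and 3 lower (30.8% together), against 3.03% of all rows. The list median was -0.12, where that of all rows was -0.043. For NME1-E5A against the other NME1 lines it was -0.02. The other lines had list medians against Parent of -0.04 in NME1-wild-type, -0.10 in NME1-K12Q and -0.15 in NME1-P96S. EREG, epiregulin, read 6.04, 5.89, 5.83 and 6.13 in NME1-E5A, against 7.31, 7.13, 6.86 and 6.92 in Parent, and differed by -1.08 (adjusted p 0.00363, limma). TGFA, a ligand of the same receptor, read 6.25, 6.20, 6.24 and 6.19 in NME1-E5A, against 5.43, 5.80, 5.49 and 5.46 in Parent, and rose by 0.67 (adjusted p 0.00933, limma). Neither gene had overlapping groups. The TGFA call was lost without NME1-E5A replicate 3 or Parent replicate 3, at differences of 0.65 to 0.67 and adjusted p of 0.0512 to 0.0517 by limma. The receptors did not pass, with EGFR at -0.18, ERBB2 at -0.00 and ERBB3 at 0.08.

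SEMA6D, a transmembrane semaphorin that guides axons, read 5.66, 5.89, 5.81 and 5.93 in NME1-E5A, against 6.87, 6.36, 6.66 and 6.73 in Parent. It differed by -0.83 (adjusted p 0.00933, limma), and by -0.78 without NME1-E5A replicate 1 (adjusted p 0.0508, limma). It was the 1 changed gene of 27 semaphorins, plexins and neuropilins, of which 1 (3.7%) had an unadjusted p under 0.05. Of all rows 0.214% changed and 3.03% had such a p. IRF4, a transcription factor of lymphocytes and of the pigment cell lineage, read 6.88, 6.94, 6.82 and 6.77 in NME1-E5A, against 7.50, 7.46, 7.73 and 7.70 in Parent. It differed by -0.75 (adjusted p 0.00363, limma), and the groups were apart for both genes. The 15 other measured melanocyte lineage genes did not pass, and MITF, the regulator of that lineage, read 5.66 ± 0.0778 in NME1-E5A and 5.73 ± 0.088 in Parent (SD, n = 4 each).

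**Figure D5:**
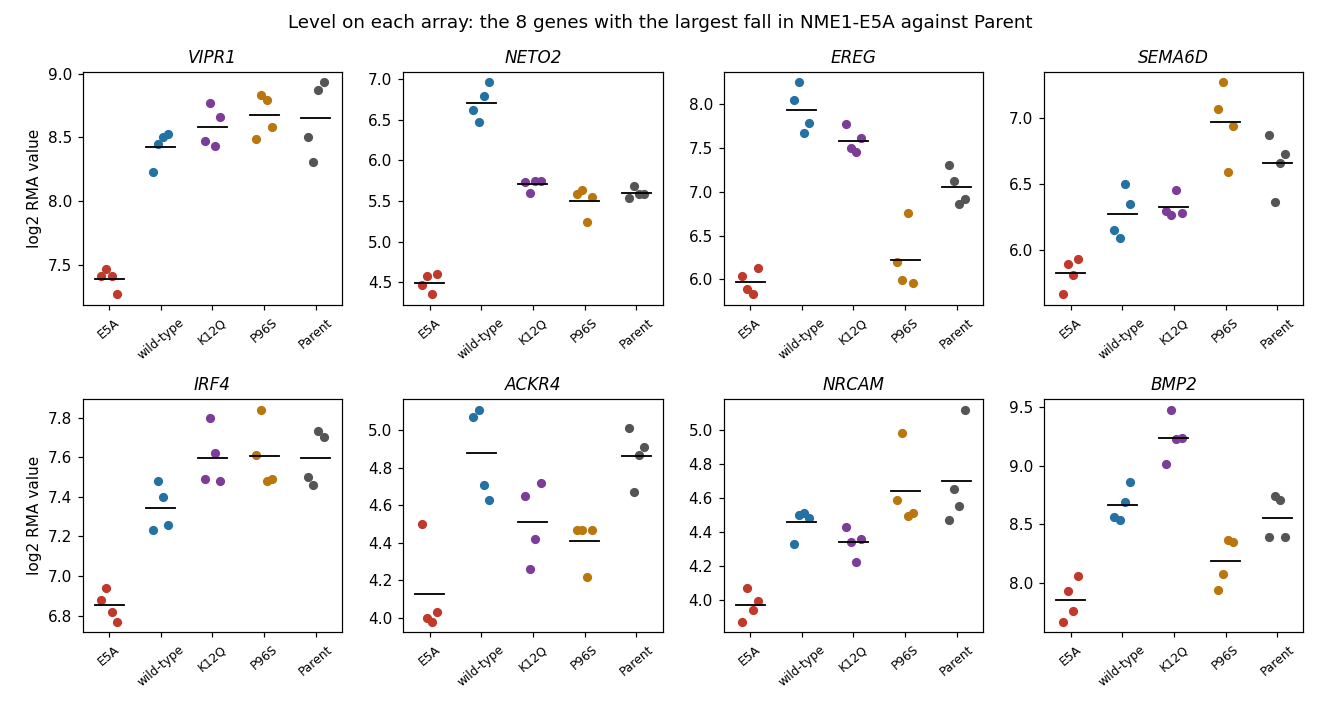
Log2 RMA value on each array (points) and mean (bar) in NME1-E5A, NME1-wild-type, NME1-K12Q, NME1-P96S and Parent for the 8 single-symbol genes with the largest called fall. VIPR1, NETO2, SEMA6D and IRF4 are lower in NME1-E5A than on any other array. EREG is low in NME1-P96S too (mean 6.23).

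The other falls were smaller. ACKR4, which scavenges chemokines, differed by -0.73, with 3.98 to 4.50 in NME1-E5A and 4.67 to 5.01 in Parent. NRCAM, a neural cell adhesion molecule, differed by -0.73, and BMP2, a bone morphogenetic protein, by -0.70, with 7.67 to 8.06 in NME1-E5A and 8.39 to 8.74 in Parent. LIPH, a lipase that produces lysophosphatidic acid, differed by -0.66, and ACAN, the proteoglycan aggrecan, by -0.63. FZD4, a Wnt receptor, differed by -0.60 as the 1 changed gene of 14 Wnt receptors, and AGFG2 by -0.59. Of those receptors 1 (7.14%) had an unadjusted p under 0.05, where 3.03% of all rows did and 0.214% were called. Row 3080437, which has no listed gene, differed by -0.76 and row 3829857, which carries ZNF302 and ZNF181, by -0.69. Adjusted p ran from 0.0079 to 0.0357 by limma, and the groups were apart in all of these rows.

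Each of these smaller falls missed a threshold when some single arrays were left out, with the differences given here. ACAN was lost without any 1 of the 8 arrays (-0.67 to -0.58) and AGFG2 without any but Parent replicate 1 (-0.61 to -0.56). BMP2 was lost without NME1-E5A replicate 1, 2 or 3, without Parent replicate 2 or 3, and without replicate 3 of NME1-wild-type or of NME1-K12Q (-0.73 to -0.64). ACKR4 was lost without NME1-E5A replicate 2, 3 or 4, Parent replicate 1, 3 or 4, NME1-K12Q replicate 1 or 3, or NME1-P96S replicate 4 (-0.73 to -0.68). NRCAM was lost without any single NME1-E5A array or Parent replicate 4 (-0.76 to -0.59). LIPH was lost without NME1-E5A replicate 2 or 3 or Parent replicate 4 (-0.66 to -0.62). FZD4 fell out without NME1-E5A replicate 3 or Parent replicate 2 (-0.58 to -0.53), where its fold dropped under 1.5. Row 3829857 was lost without NME1-E5A replicate 2 or 3 (-0.68 to -0.67), and row 3080437 without NME1-E5A replicate 3 or 4 or Parent replicate 3 (-0.73 to -0.63). With quantile normalisation limma gave adjusted p of 0.824 for ACKR4 (-0.61), 0.862 for NRCAM (-0.61) and 0.82 for LIPH (-0.55). For row 3829857 (-0.57) it gave 0.782 and for BMP2 (-0.74) 0.105, so all of these were lost. Centring each array on its median lost ACKR4 (adjusted p 0.076), NRCAM (0.0751), LIPH (0.0534) and ACAN (0.103) by limma. AGFG2 (-0.55) and FZD4 (-0.57) fell under a fold of 1.5 there.

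Several rows reached a fold of 1.5 and just missed the adjusted p. On the higher side HAS2, a hyaluronan synthase, differed by 0.85 (adjusted p 0.0685, limma), and MMP9, a matrix metalloproteinase, by 0.65 (adjusted p 0.0725, limma). PTTG1IP differed by 0.64. On the lower side the cytokine gene IL6 differed by -0.62 (adjusted p 0.0685, limma), MMP3 by -0.62 and GREM1, a BMP antagonist, by -0.71 (adjusted p 0.0741, limma). Without Parent replicate 2, MMP9 (0.75, adjusted p 0.0305) and IL6 (-0.70, adjusted p 0.0444) passed by limma. HAS2 (0.70, adjusted p 0.247), PTTG1IP (0.50, adjusted p 0.316), MMP3 (-0.59, adjusted p 0.208) and GREM1 (-0.69, adjusted p 0.203) did not pass there by limma. Limma called 0 of the 22 measured matrix proteases and inhibitors, and their median was 0.04. At an unadjusted p under 0.05 there were 4 (18.2%), against 3.03% of all rows. The largest difference of a named gene over all rows was that of ARLN, singled out after its values were seen, at 1.79 with an adjusted p of 0.205 by limma.

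Limma called 0 genes in some lists whose median lay near that of all rows. They were 17 genes of the invasive melanoma state (-0.01), 21 of MAPK pathway output (0.07), 14 metastasis suppressors (0.07), 17 of the interferon response (-0.05) and 16 of amino acid and unfolded protein stress (-0.07). At an unadjusted p under 0.05 these had 3 (17.6%), 1 (4.76%), 2 (14.3%), 0 and 0 genes in the same order, against 3.03% of all rows. The 12 measured genes of sterol synthesis had a median of -0.19, with INSIG2 the 1 gene called. In 9 of the 12 the difference was negative. An unadjusted p under 0.05 was reached by 3 (25%), 1 higher and 2 lower. The 17 chemokine receptors had a median of -0.10, with ACKR4 the 1 called and 1 (5.88%) at an unadjusted p under 0.05. Of all rows 0.214% were called. The changed rows were spread over the genome. Those with a known chromosome lay on 15 chromosomes for the higher ones and on 8 for the lower ones, and the medians of the autosomes and X ran from -0.06 to 0.02.

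Whether the E5A line differed from the other lines with a construct was tested with the contrast of NME1-E5A minus the mean of NME1-wild-type, NME1-K12Q and NME1-P96S. By the same rule 44 rows changed (0.235%), 28 higher in NME1-E5A (0.15%) and 16 lower (0.0855%). Without NME1-E5A replicate 3 the count was 27. This contrast shares the NME1-E5A arrays with the one against Parent, so the counts that follow are a description. Of the 26 rows higher than in Parent, 20 were also higher in this contrast, and of the 14 lower rows 8 were also lower. In 25 of the 26 higher rows the 4 NME1-E5A arrays lay above all other 16 arrays, as in 0.353% of all rows, with IPMK the exception. In 8 of the 14 lower rows they lay below all other arrays, as in 0.102% of all rows, the exceptions being EREG, ACKR4, BMP2, row 3829857, ACAN and AGFG2.

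Against the other NME1 lines ENO2 was 0.99 higher (adjusted p 1.48e-05), NRN1 1.09 (adjusted p 9.17e-05) and VLDLR 0.93 (adjusted p 9.17e-05), all by limma. AK4 was 0.96 higher (adjusted p 0.00655) and BNIP3 0.77 (adjusted p 0.00595), again by limma. AK4 was in turn 0.66 above Parent in NME1-wild-type, 0.53 in NME1-K12Q and 0.57 in NME1-P96S, none of which passed. ALDOC departed from this pattern. It also passed against Parent in NME1-wild-type (0.79, adjusted p 0.0298, limma) and in NME1-P96S (0.97, adjusted p 0.00357, limma), and lay at -0.26 in NME1-K12Q. NME1-E5A exceeded NME1-K12Q by 1.67 (adjusted p 1.68e-06, limma) and NME1-P96S by 0.44, which did not pass (adjusted p 0.372, limma). For the 27 hypoxia response genes the median against the other NME1 lines was 0.47 with 4 called, and their medians against Parent were 0.06 in NME1-wild-type, 0.16 in NME1-K12Q and 0.17 in NME1-P96S.

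ERO1A (0.59, adjusted p 0.105), GYS1 (0.45, adjusted p 0.0802), MPI (0.39, adjusted p 0.152) and IPMK (0.31, adjusted p 0.409) did not pass limma against the other NME1 lines. Among the falls, ACKR4 (-0.47, adjusted p 0.165), AGFG2 (-0.29, adjusted p 0.489) and row 3829857 (-0.13, adjusted p 1) did not pass either. The last was also -0.52 in NME1-wild-type, -0.53 in NME1-K12Q and -0.63 in NME1-P96S against Parent. VIPR1 (-1.17), NETO2 (-1.48) and EREG (-1.28) passed, with adjusted p of 1.48e-05, 4.08e-08 and 3.62e-05 by limma.

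Some genes passed against the other NME1 lines and not against Parent. MMP3, the matrix metalloproteinase stromelysin, averaged 5.25 in NME1-E5A, 6.50 in NME1-wild-type, 6.66 in NME1-K12Q, 5.76 in NME1-P96S and 5.87 in Parent. It was 1.06 lower on the log2 scale than in the other NME1 lines, with -1.06 at an adjusted p of 3.42e-05 by limma. GDA, guanine deaminase, averaged 6.26 in NME1-E5A, against 7.14 in NME1-wild-type, 7.22 in NME1-K12Q, 6.70 in NME1-P96S and 6.77 in Parent, and differed by -0.76 (adjusted p 0.00134, limma). MMP9 (0.67, adjusted p 0.0092) and HAS2 (0.85, adjusted p 0.01) were higher than in those lines by limma. MRGPRX4 (-0.78) and RUNX1-IT1 (-1.06) were lower.

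The mutant was also set directly against the unmutated construct. Between NME1-E5A and NME1-wild-type 38 rows changed (0.203%), 19 higher (0.102%) and 19 lower (0.102%). Leaving out any 1 NME1-E5A array, or NME1-wild-type replicate 1, 2 or 3, lowered the count to between 16 and 25. Of the 26 rows higher than in Parent 12 were among them in the same direction, and of the 14 lower rows 6 were. NETO2 differed most. It read 4.46, 4.57, 4.35 and 4.60 in NME1-E5A and 6.62, 6.47, 6.79 and 6.96 in NME1-wild-type, with Parent between them, and the difference of -2.22 had an adjusted p of 9.56e-10 by limma. EREG followed, with a difference of -1.96 (adjusted p 2.34e-06, limma) and 7.67 to 8.25 in NME1-wild-type. Relative to Parent the wild-type line was thus 1.11 higher in NETO2 and 0.88 higher in EREG, where the E5A line was lower. For ENO2 the difference from NME1-wild-type was 1.07 (adjusted p 9.26e-05), for NRN1 1.02 (adjusted p 0.0031) and for VIPR1 -1.04 (adjusted p 0.00107), by limma. ALDOC (0.62, adjusted p 0.0788), AK4 (0.89, adjusted p 0.0976) and PDK1 (0.88, adjusted p 0.163) did not pass limma against NME1-wild-type. BNIP3 (0.60, adjusted p 0.264), INSIG2 (0.88, adjusted p 0.0976) and ERO1A (0.74, adjusted p 0.132) did not pass limma either. Of the 4 hypoxia response genes called against Parent, STC1 alone passed here (0.77, adjusted p 0.0243, limma). PFKFB4 of the glycolysis list passed too (0.88, adjusted p 0.041, limma).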

How the data were processed

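Values were log2 expression values per transcript cluster that the authors normalised with RMA before they deposited them, per the series' design text and the submitters' processing notes, which also name limma; for the versions, the genome build and the annotation the entry is "not given in the sources used here". Groups came from the sample titles. Rows were named with the platform annotation, giving 14733 rows with a single symbol, 2875 with several and 1100 not listed, and 22 symbols were updated by gene ID. Rows with several symbols were assigned to no gene, except that the NME1 and NME2 rows are named with their readthrough partner.

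A limma model (version 3.58.1, R 4.3.3; lmFit, eBayes) was fitted to all 20 arrays and 18708 rows, with 1 mean per line, giving 15 residual and 4.69 prior degrees of freedom. Tests were two-sided and adjusted by Benjamini-Hochberg over all rows. Genes were named by rule: all changed single-symbol rows, the 5 nearest misses in each direction, up to 8 in each direction against the other NME1 lines, the NME family, and members of 29 lists. The members and lists were chosen with earlier results of these data known, and the split of rows into 4 classes of level was added after the data were seen. Gene starts came from RefSeq tables of GRCh38.p14. Alternatives covered normalisation, array quality, the fold threshold, rows tested, replicate numbers as a block, and each array left out. Residuals of equally numbered NME1-E5A and Parent arrays correlated at -0.320 to 0.239, and the numbers were not taken as pairs. A part shared by replicate number is not excluded. Principal component 2 of the arrays (12.9% of the variance) read -27.324 to -7.965 for replicate 1 across the lines. It read 3.983 to 11.402 for replicates 3 and 4, and replicate 2 lay on both sides. Counts with the replicate number as a block are given below. Precision is limited by how many arrays each line has, since arrays have no read depth.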

Additional observations from a re-analysis of the deposited data

Results flagged for a closer look

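In 4 genes or rows, 1 array stood far from the other 3 of its line, with a gap to the nearest array that exceeded Dixon's critical share of the range. The shares were 0.937 for row 2643217 in NME1-E5A (7.41, nearest 7.67), 0.904 for ACKR4 in NME1-E5A (4.50, nearest 4.03), 0.915 for AGFG2 in Parent (7.65, nearest 7.92) and 0.842 for TGFA in Parent (5.80, nearest 5.49). Such gaps arise by chance in about 1 in 20 groups, and 80 groups were examined.

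In 7 genes or rows NME1-E5A lay on one side of Parent and NME1-wild-type on the other, and the difference between NME1-E5A and NME1-wild-type passed limma. NETO2 differed by -2.22 (adjusted p 9.56e-10, limma), with NME1-E5A at -1.11 and NME1-wild-type at 1.11 against Parent. EREG differed by -1.96 (adjusted p 2.34e-06, limma), with NME1-E5A at -1.08 and NME1-wild-type at 0.88. In the other 5 the wild-type line lay within 0.13 of Parent. They were GPR146 at 1.00 (adjusted p 0.0188), row 2643217 at 0.96 (adjusted p 0.00155), PFKFB4 at 0.88 (adjusted p 0.041), BMP2 at -0.81 (adjusted p 0.0118) and ACKR4 at -0.75 (adjusted p 0.0365), all by limma.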

How the results depend on the processing

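Of the 40 rows changed against Parent, 12 stayed past both thresholds in each of 31 alternatives to normalisation, arrays, rows and variance model, and 0 results reversed. They were AK4, ALDOC, NRN1, ENO2, VLDLR, BEND5, BNIP3, STC1, B4GALT6, EREG, NETO2 and VIPR1. A test against a fold of 1.5 (treat), counted apart, left 2 rows. The count of 40 moved to 99 with array weights, 68 with the interquartile range as a covariate and 12 with the arrays of the compared lines alone. With the compared lines alone the counts were 48 against the other NME1 lines and 46 against NME1-wild-type. The count against Parent was 47 with quantile normalisation, 58 without the 3 arrays of narrowest range, and 20 to 53 with each array left out. Quantile normalisation lost 7 of the 40 calls. Centring each array on its median lost 11, with ERO1A, PFKFB4 and SEMA6D among them. Against the other NME1 lines the 44 rows became 77 with array weights and 1 with treat, and 27 to 50 with each array left out. Against NME1-wild-type the 38 rows became 77 with array weights, 59 with the covariate and 2 with treat, and 16 to 44 with each array left out. The 4 called hypoxia response genes became 12 with array weights, 11 with the covariate, 7 with quantile normalisation, 2 with the compared lines alone, and 2 to 7 with each array left out, while the 3 glycolysis genes stayed between 2 and 4. The cause of these shifts was not tested. With the replicate number as a fixed block the counts were 45, 46 and 40 for the contrasts with Parent, the other NME1 lines and NME1-wild-type, and the hypoxia response had 5 called genes. For the NME1 row the difference was 0.20 to 0.33 with each array left out, and the block by replicate number gave an exact p of 0.125, the smallest that design allows.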
